A study of Apostichopus japonicus with 9 samples.

Results

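Ferritin and the melanotransferrins are iron-binding proteins, and 5 genes annotated as such were followed in AJBW, the body wall of *Apostichopus japonicus*, an edible sea cucumber. They were chosen by their deposited descriptions, which had to hold the word ferritin or transferrin, and by a mean level of at least 1 FPKM over the 9 libraries. FPKM counts fragments and scales them to transcript length and to the mapped reads of the library. Comparisons of FPKM between libraries still depend on how the libraries are scaled, so other scalings are given below. The search found 7 of the 53665 genes in the table, and no transferrin receptor was among them to be dropped. MSTRG.46045, a soma ferritin-like gene, averaged 0.392 FPKM and was below the minimum, while the lowest gene kept, MSTRG.40899, averaged 16.04 FPKM. MSTRG.30583 is a pyruvate dehydrogenase (acetyl-transferring) kinase whose description matched only through the word "transferring". It was kept apart from the iron genes. The remaining 5 genes were 1 ferritin (MSTRG.43507) and 4 melanotransferrins (MSTRG.32738, MSTRG.36812, MSTRG.32733 and MSTRG.40899).

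The libraries came from animals of an aquatic market whose viscera and heads had been removed. T_1h and T_3h are body wall pieces kept on plates at 37 °C for 1 h and 3 h, and CON is fresh body wall at 0 h, with 3 libraries of total RNA in each group. The same numbers mark libraries of the 3 groups, but whether they share an animal is not stated, so p-values measure the spread between these libraries, which may be partly technical. The pieces were excised tissue, and in a bulk library fewer cells of a type and less RNA per cell cannot be told apart.

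Iron is needed for haem and iron-sulphur enzymes and is toxic when free. Ferritin forms a hollow protein cage that stores it. Transferrins bind ferric iron, and melanotransferrin is the member of that family that is held at the cell surface in mammals. In sea cucumbers, ferritin and melanotransferrin genes have been studied as genes of the immune response. The deposited annotation of MSTRG.43507 (gene model AJAP19566) lists cellular iron ion homeostasis and ferric iron binding. All 4 melanotransferrin genes were described by the same database protein, so how fragments that match several of them were shared out is uncertain for each. MSTRG.32738 has the gene model AJAP14264 and MSTRG.40899 has AJAP03374. MSTRG.32733 and MSTRG.36812 each join 2 gene models (AJAP14258 and AJAP14259, and AJAP16209 and AJAP16210).

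The values are FPKM, so the reads behind a single gene cannot be read from them, and the number of libraries limits the precision. Read totals of the libraries are stated in the study and were not used here. Total FPKM per library lay between 336123 and 388082. T_1h_1 stood apart in the study, which left it out of its comparisons, and it was left out of the fits here, so that 8 libraries were fitted with limma on log2(FPKM + 1). All values of T_1h_1 are still given. The thresholds were a limma p of 0.05 or less before adjustment and a log2(fc) of 1 or more in either direction, where log2(fc) is on the log2(FPKM + 1) scale and understates changes of low genes. Past both were 444 of 50973 genes tested for T_1h and 2111 for T_3h against CON, and none had a Benjamini-Hochberg adjusted p under 0.05 by limma or by a Ballgown-type test in either comparison, where 896 and 3157 had an unadjusted limma p under 0.05. With the replicate number as a block, 791 and 3173 genes were past them. Shares over all genes tested, as given below, include many genes under 1 FPKM. In a fit of only the 20350 genes averaging at least 1 FPKM, 356 (1.75%) were past the thresholds at T_1h. At T_3h 1995 (9.8%) were, of which 234 were higher and 1761 lower. The median log2(fc) of genes of at least 1 FPKM was -0.17 at T_1h and -0.39 at T_3h, each against CON. Of the 2111 genes past the thresholds in T_3h vs. CON, 1870 were lower. With median-ratio scaling between libraries that median was -0.07, and 858 of 1430 were lower.

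**Figure D1:**
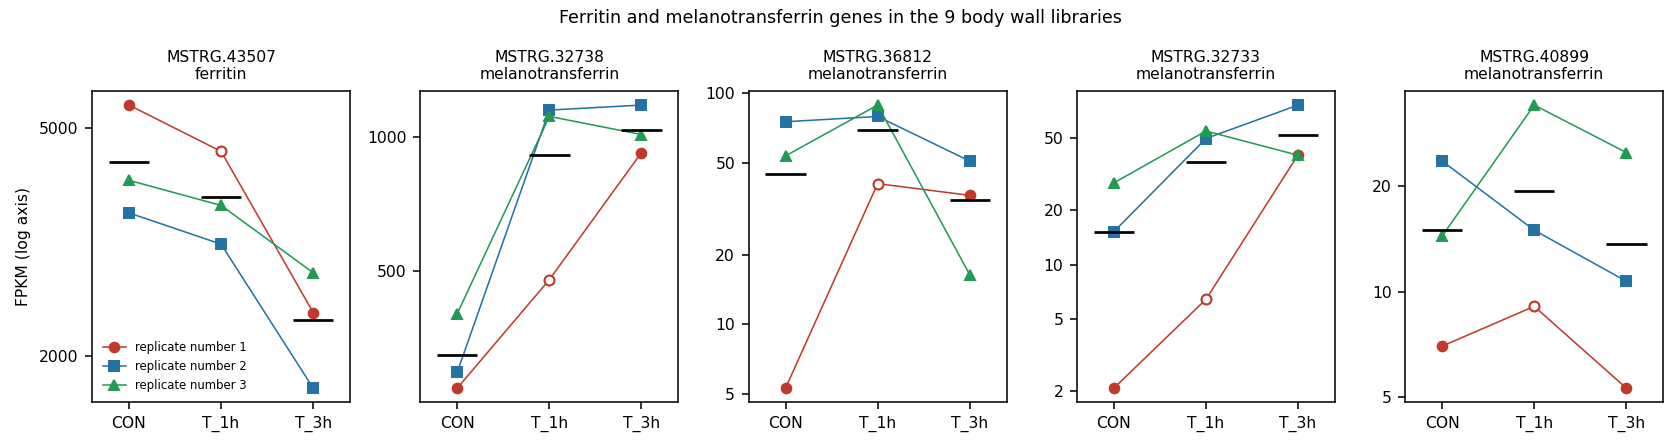
FPKM (log axis) of the ferritin gene and the 4 melanotransferrin genes in CON, T_1h and T_3h, with 1 symbol per library, lines joining libraries of the same number, black bars for the mean of 3 libraries and an open symbol for T_1h_1. Ferritin lay between 1759 and 2795 FPKM at T_3h, below all 3 CON libraries, and MSTRG.32738 lay between 922 and 1179 FPKM, above all 3 CON libraries.

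Ferritin was the most abundant of the iron genes in each of the 9 libraries. Its level was 5476, 3553 and 4050 FPKM in CON_1, CON_2 and CON_3, then 4547, 3135 and 3662 FPKM in the T_1h libraries and 2383, 1759 and 2795 FPKM in the T_3h libraries. T_1h_1 and T_1h_3 fell inside the range of CON and T_1h_2 below it, whereas all 3 T_3h values lay below every CON and every T_1h value. Among all genes of a library, ferritin ranked 4 to 6 in CON, 7 to 9 at T_1h and 11 to 20 at T_3h. The mean was 2312 ± 521 FPKM at T_3h and 4360 ± 998 FPKM in CON (SD, n = 3 each).

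In T_3h vs. CON, the log2(fc) of ferritin was -0.92 (95% confidence interval -1.69 to -0.14), with an unadjusted p of 0.0253 and an adjusted p of 0.763 by limma, which missed the size threshold. Its level was lower in 3 of 3 libraries compared by number, with ratios of 0.435, 0.495 and 0.690. That was the case for 26.4% of all genes tested, and 9% had T_3h libraries that all lay below CON. At T_1h it was also lower in 3 of 3, as 15.4% of all genes were. Ferritin had a log2(fc) of -0.39 with median-ratio scaling and of -0.32 with upper-quartile scaling. It was past the thresholds without CON_2 (-1.05) or without T_3h_3 (-1.07). In T_1h vs. CON the log2(fc) was -0.34 (95% confidence interval -1.20 to 0.52, limma unadjusted p = 0.393). In T_3h vs. T_1h it was -0.58 (limma unadjusted p = 0.163), and 10.3% of all genes had T_3h libraries that all lay below the fitted T_1h libraries, as ferritin had.

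MSTRG.32738 was the leading melanotransferrin. It was picked through its calls in these very comparisons, so its values are a description and were not tested. It stood at 273, 297 and 401 FPKM in the CON libraries, at 478, 1149 and 1112 FPKM at T_1h and at 922, 1179 and 1012 FPKM at T_3h. Every heated library was above every CON library, and T_1h_1 was the lowest of the heated libraries. Of all genes tested, 4.37% were above CON without overlap at T_1h and 1.68% at T_3h in the fitted libraries, from which nothing is read for a gene chosen this way. The mean was 324 ± 68.3 FPKM in CON, 913 ± 377 FPKM at T_1h and 1038 ± 130 FPKM at T_3h (SD, n = 3 each). Compared by number, the T_1h libraries were 1.75, 3.87 and 2.77 times and the T_3h libraries 3.38, 3.98 and 2.52 times the CON library. Its rank among all genes was 125 to 172 in CON, 31 to 111 at T_1h and 35 to 69 at T_3h.

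The FPKM of ferritin was set beside that of MSTRG.32738, as a description only. Ferritin had 20.05, 11.98 and 10.1 times the FPKM of MSTRG.32738 in the CON libraries, 9.51, 2.73 and 3.29 times in the T_1h libraries and 2.58, 1.49 and 2.76 times in the T_3h libraries. The ratio was below all CON values in each heated library. It is built on the gene chosen by its calls in these comparisons, so nothing is read from its fall. MSTRG.32738 carried between 72.2% and 95.01% of the summed melanotransferrin FPKM of a library, so that sum follows it closely. Together the 5 iron genes held between 0.892% and 1.71% of the total FPKM of a library.

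Of the 4 iron genes that could be tested, 1 passed the thresholds in each comparison with CON, both times MSTRG.32733 and both times higher. The background was 0.871% of all genes tested at T_1h (0.398% higher and 0.473% lower). At T_3h it was 4.14% (0.473% higher and 3.67% lower). In the fit of only genes averaging at least 1 FPKM, as these 4 did, it was 1.75% at T_1h and 9.8% at T_3h. None of the 4 was past them in T_3h vs. T_1h by limma, where the background was 0.728%. None of them had an unadjusted p under 0.05 there either, and 1 (MSTRG.36812) was past them by the Ballgown-type test.

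MSTRG.32733 is a much lower melanotransferrin. Its level was 2.08, 15.2 and 28.2 FPKM in CON, 6.42, 49.6 and 54.6 FPKM at T_1h and 40.3, 75.9 and 40.1 FPKM at T_3h. All T_3h libraries were above all CON libraries, as 1.68% of all genes were. T_1h_1 lay inside the range of CON, and CON_1 was the lowest library of all. The mean was 52.1 ± 20.6 FPKM at T_3h and 15.2 ± 13.1 FPKM in CON (SD, n = 3 each). The 3 libraries of T_1h were 3.09, 3.27 and 1.93 times the CON library of the same number, and those of T_3h were 19.4, 5.003 and 1.42 times it. Being higher in 3 of 3 libraries compared by number held for 6.21% of all genes at T_1h and for 4.93% at T_3h.

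The log2(fc) of MSTRG.32733 was 2.23 in T_1h vs. CON (standard error 0.85, unadjusted p = 0.0297, adjusted p = 1 by limma) and 2.16 in T_3h vs. CON (standard error 0.76, unadjusted p = 0.0208, adjusted p = 0.746 by limma). At T_1h the call was lost when T_1h_1 was fitted as well (1.28, limma unadjusted p = 0.210), and also without T_1h_2 (limma unadjusted p = 0.083) or T_1h_3 (limma unadjusted p = 0.098). At T_3h it was lost without T_3h_2 (1.86, limma unadjusted p = 0.068) and in the Ballgown-type test (2.82). Leaving out CON_1 brought the log2(fc) to 1.29 at T_1h and 1.22 at T_3h. In T_3h vs. T_1h it was -0.06, and it was 0.88 with all 9 libraries.

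**Figure D2:**
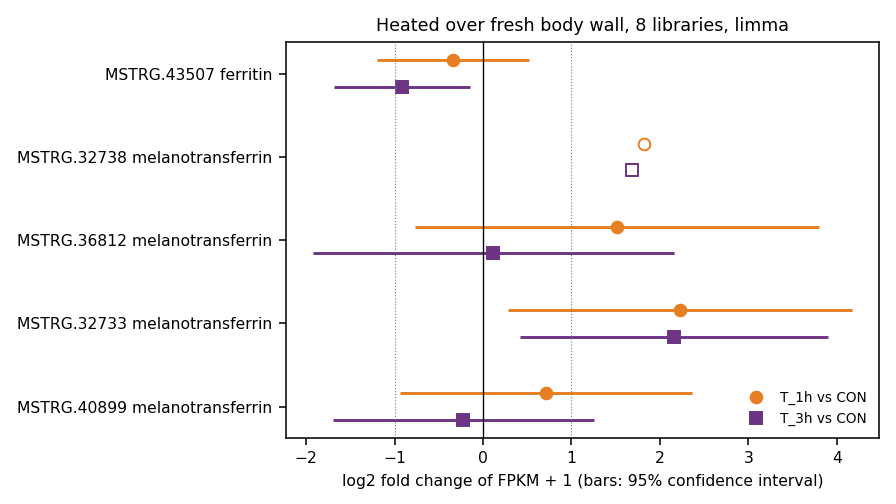
Log2 fold change of FPKM + 1 over CON for each iron gene at T_1h (circles) and T_3h (squares), from the limma fit of 8 libraries, with bars for 95% confidence intervals and open symbols without bars for MSTRG.32738, which was not tested. The intervals of MSTRG.32733 lie above 0 at both times and that of ferritin lies below 0 at T_3h, while both intervals of MSTRG.36812 and of MSTRG.40899 span 0.

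The other melanotransferrins did not move past the thresholds. MSTRG.36812 had 5.30, 75.1 and 53.5 FPKM in CON, 40.6, 79.2 and 88.7 FPKM at T_1h and 36.1, 50.8 and 16.4 FPKM at T_3h. CON_1 was far below the other CON libraries, so that the CON range took in every T_3h value. Its log2(fc) was 1.52 in T_1h vs. CON (95% confidence interval -0.76 to 3.80, limma unadjusted p = 0.165) and 0.12 in T_3h vs. CON (95% confidence interval -1.92 to 2.16, limma unadjusted p = 0.898). Without CON_1 the value was 0.40 at T_1h and -1.0 at T_3h. In T_3h vs. T_1h it was -1.40 (limma unadjusted p = 0.197), and without CON_1 this became a fall past the thresholds (limma unadjusted p = 0.031).

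MSTRG.40899 had 6.98, 23.7 and 14.4 FPKM in CON, 9.08, 15.0 and 34.2 FPKM at T_1h and 5.29, 10.7 and 25.0 FPKM at T_3h. The groups overlapped throughout, and the spread between libraries of a group was wider than the distance between groups. Its log2(fc) was 0.71 in T_1h vs. CON (95% confidence interval -0.93 to 2.36, limma unadjusted p = 0.350) and -0.22 in T_3h vs. CON (95% confidence interval -1.69 to 1.25, limma unadjusted p = 0.740). In order of mean level over the 9 libraries the melanotransferrins were MSTRG.32738 (758 FPKM), MSTRG.36812 (49.5 FPKM), MSTRG.32733 (34.7 FPKM) and MSTRG.40899 (16.04 FPKM). Neighbours below MSTRG.32738 overlapped in their library values, so only its place apart was clear of the spread. The order below it also differed between groups. At T_3h MSTRG.32733 was above MSTRG.36812 in each library, with means of 52.1 and 34.4 FPKM, and in CON MSTRG.32733 and MSTRG.40899 had means of 15.2 and 15.02 FPKM.

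The soma ferritin-like gene MSTRG.46045 stayed under 1 FPKM in each library. It was at 0.506, 0 and 0.246 FPKM in CON, 0.536, 0.209 and 0.655 FPKM at T_1h and 0.791, 0.276 and 0.312 FPKM at T_3h, with overlapping groups and a log2(fc) of 0.20 at T_1h and 0.23 at T_3h (limma unadjusted p = 0.524 and 0.421). The kinase MSTRG.30583, an inhibitor of pyruvate dehydrogenase and no iron protein, had 79.1, 81.0 and 62.4 FPKM in CON, 57.8, 26.7 and 34.2 FPKM at T_1h and 44.5, 23.2 and 29.7 FPKM at T_3h. Its fitted libraries lay below CON without overlap at both times, as did those of 7.85% of all genes at T_1h and 9% at T_3h. The kinase fell past the thresholds at both (log2(fc) -1.26 and -1.21, limma unadjusted p = 0.0136 and 0.0096), as 0.473% and 3.67% of all genes did. At T_1h the call was lost with all 9 libraries (-0.95) and without T_1h_2, and at T_3h with median-ratio scaling (-0.69), with upper-quartile scaling (-0.62) and without T_3h_2.

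The other genes of iron handling were taken from 7 lists of descriptions, and 39 of their 41 genes were tested. In T_1h vs. CON 1 was higher and 1 lower past the thresholds, beside 0.398% higher and 0.473% lower of all genes tested. In T_3h vs. CON 1 was higher and 3 were lower, beside 0.473% and 3.67%. With the replicate number as a block the total was 4 at T_1h and 7 at T_3h, where 1.55% and 6.22% of all genes were past the thresholds. With median-ratio scaling it was 0 and 1, with 0.802% and 2.81% of all genes past them. The median log2(fc) of the 39 genes was -0.09 at T_1h and -0.17 at T_3h, beside -0.06 and -0.17 over all genes tested. Over all genes of at least 1 FPKM, a level that not all of the 39 reached, it was -0.17 and -0.39. Without T_3h_3 the count at T_3h was 11, where 7.28% of all genes tested were past the thresholds. Without T_3h_2 it was 1, beside 2.43% of all genes. At T_1h the count was 4 without T_3h_3, beside 0.964%, and 0 without CON_1, beside 0.74%.

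**Figure D3:**
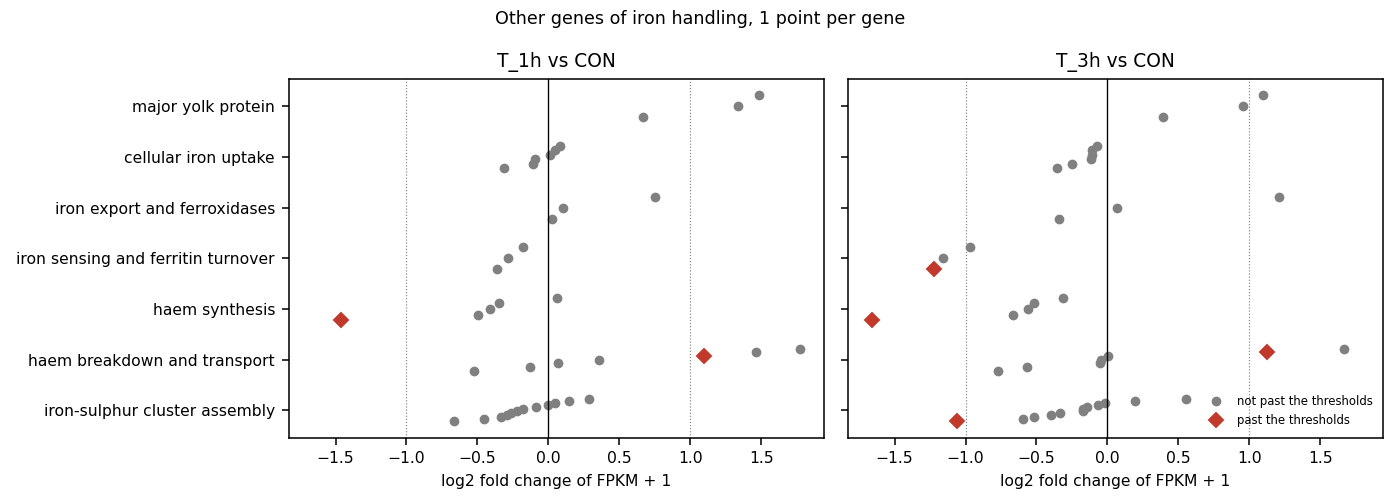
Log2 fold change of FPKM + 1 over CON of 39 other genes of iron handling in 7 lists, 1 point per gene, at T_1h (left) and T_3h (right), with red diamonds for genes past the thresholds and dotted lines at -1 and 1. The left panel has 2 diamonds and the right has 4, and 29 of the 39 genes lie below 0 at T_3h, where the median over all genes tested was also below 0.

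Iron sensing and ferritin turnover held 3 genes, all with a log2(fc) below 0 at both times. The median of all genes of at least 1 FPKM was also below 0, at -0.17 and -0.39. Nuclear receptor coactivator 4 carries ferritin to autophagic breakdown in mammals. Of the genes so described, MSTRG.45065 had 10.1, 12.4 and 9.08 FPKM in CON, 8.83, 7.79 and 9.12 FPKM at T_1h and 3.77, 1.86 and 7.66 FPKM at T_3h. Its T_3h libraries all lay below CON, as those of 9% of all genes tested did. MSTRG.45065 fell by 1.22 on the log2 scale (standard error 0.45, limma unadjusted p = 0.0258, adjusted p = 0.764). Lower past the thresholds were 3.67% of all genes tested. The call of MSTRG.45065 was lost with median-ratio scaling (-0.81), and also without CON_1, CON_2, T_3h_1 or T_3h_2. Another nuclear receptor coactivator 4 gene, MSTRG.30978, was not past the thresholds at T_3h (log2(fc) -0.97, limma unadjusted p = 0.071). Its T_3h libraries (2.39, 1.85 and 6.18 FPKM) overlapped CON (5.02, 8.64 and 7.89 FPKM). Cytoplasmic aconitase doubles as an iron regulatory protein in mammals. Its gene MSTRG.33637 had 6.55, 3.03 and 16.8 FPKM at T_3h and 9.94, 22.3 and 22.5 FPKM in CON, with a log2(fc) of -1.16 (limma unadjusted p = 0.086). It was past the thresholds only in some settings, such as the replicate block (limma unadjusted p = 0.040), where 6.22% of all genes tested were.

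Haem synthesis held 5 genes, of which 1 was lower past the thresholds at each time, as 0.473% of all genes were at T_1h and 3.67% at T_3h. This was MSTRG.31018, 5-aminolevulinate synthase, which carries out the first step of the pathway. It had 42.4, 26.9 and 18.6 FPKM in CON, 30.4, 7.52 and 11.8 FPKM at T_1h and 14.3, 7.42 and 4.84 FPKM at T_3h. All T_3h libraries were below all CON libraries, as 9% of all genes tested were, and T_1h_1 was inside the range of CON. It fell by 1.46 on the log2 scale at T_1h (standard error 0.54, limma unadjusted p = 0.0264, adjusted p = 1) and by 1.66 at T_3h (standard error 0.49, limma unadjusted p = 0.0085, adjusted p = 0.686). The T_1h call was lost with T_1h_1 included (-0.93) and without CON_1, CON_2 or T_1h_2. With median-ratio scaling both calls were lost (-1.27 at T_1h and -1.17 at T_3h). The other haem synthesis genes averaged between 1.08 and 2.03 FPKM.

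Haem breakdown and transport held 7 genes, none described as a haem oxygenase or biliverdin reductase. At T_3h 3 had a log2(fc) above 0 and 4 below it. At each time 1 was higher past the thresholds, as 0.398% of all genes tested were at T_1h and 0.473% at T_3h. Genes of like description did not move alike. MSTRG.355, also heme-binding protein 2-like, had 11.1, 18.0 and 42.3 FPKM at T_3h and 38.1, 29.6 and 40.4 FPKM in CON. Its log2(fc) was -0.77 (limma unadjusted p = 0.151). The heme-binding protein 2-like gene MSTRG.34627 had 30.7, 45.5 and 23.0 FPKM in CON, 64.0, 80.6 and 59.7 FPKM at T_1h and 78.7, 89.5 and 49.7 FPKM at T_3h. Every heated library was above every CON library, as 4.37% of all genes were at T_1h and 1.68% at T_3h in the fitted libraries. It rose by 1.10 on the log2 scale at T_1h (standard error 0.45, limma unadjusted p = 0.0379, adjusted p = 1) and by 1.12 at T_3h (standard error 0.40, limma unadjusted p = 0.0218, adjusted p = 0.7502). Both calls were lost in the Ballgown-type test and without CON_3 (0.87 at T_1h and 0.90 at T_3h). The T_1h call was also lost with median-ratio scaling (1.28, limma unadjusted p = 0.059) and without CON_1, T_1h_2, T_1h_3 or T_3h_1, and the T_3h call without T_3h_1 or T_3h_2.

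Iron-sulphur cluster assembly held 14 genes, of which 12 were tested. They include 2 ferredoxin-fold anticodon-binding proteins, which matched by name only. At T_3h 1 was lower past the thresholds, as 3.67% of all genes tested were. This was MSTRG.26046, iron-sulphur cluster assembly 2, with 5.49, 8.03 and 16.5 FPKM at T_3h and 17.5, 20.7 and 22.2 FPKM in CON. It fell by 1.06 on the log2 scale (standard error 0.45, limma unadjusted p = 0.0451, adjusted p = 0.802). The call was lost with median-ratio scaling (-0.57) and in 7 of the 8 fits that left out a library.

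**Figure D4:**
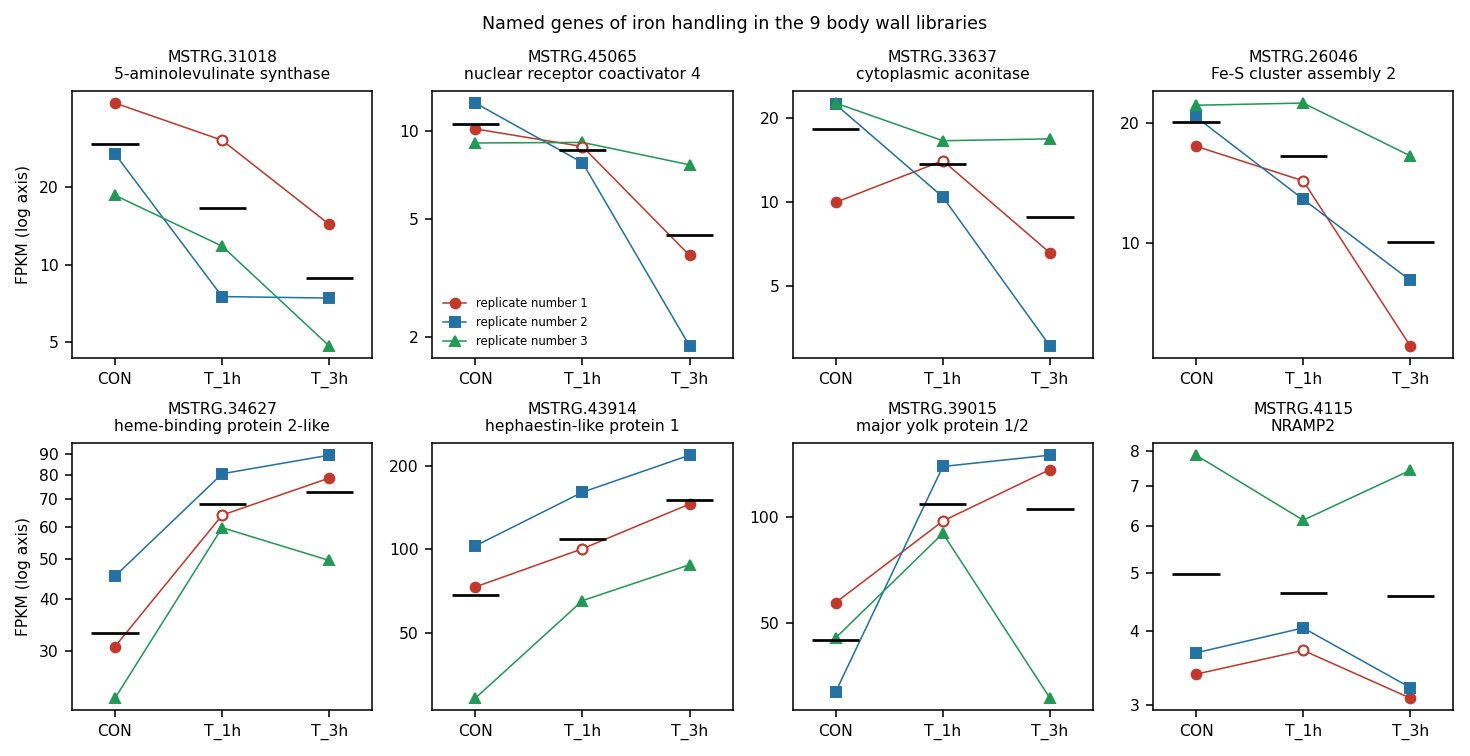
FPKM (log axis) of 8 named genes of iron handling in CON, T_1h and T_3h, with 1 symbol per library, lines joining libraries of the same number, black bars for the mean of 3 libraries and an open symbol for T_1h_1. 5-aminolevulinate synthase fell to 4.84 to 14.3 FPKM at T_3h, against 18.6 to 42.4 FPKM in CON. The heme-binding protein 2-like gene MSTRG.34627 rose to 49.7 to 89.5 FPKM at T_3h, against 23.0 to 45.5 FPKM in CON.

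No gene of 3 further lists was past the thresholds by limma without a block. The major yolk proteins are transferrin-like iron carriers of sea urchins. Their most abundant gene, MSTRG.39015, had 57.2, 32.0 and 45.4 FPKM in CON, 97.2, 138.8 and 89.7 FPKM at T_1h and 136.1, 149.4 and 30.7 FPKM at T_3h. All T_1h libraries were above all CON libraries, as 4.37% of all genes were in the fitted libraries, whereas T_3h_3 was below all CON libraries. Its log2(fc) was 1.33 at T_1h (limma unadjusted p = 0.087) and 0.96 at T_3h (limma unadjusted p = 0.156). With the replicate block it was past the thresholds at T_1h (1.60, limma unadjusted p = 0.031), as 1.55% of all genes tested were. Without T_3h_3 it was past them at both times, with 1.69 at T_3h (limma unadjusted p = 0.004).

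Hephaestin is a copper ferroxidase that accompanies iron export in mammals. The hephaestin-like gene MSTRG.43914 had 73.1, 102.8 and 29.1 FPKM in CON, 100.3, 160.4 and 65.3 FPKM at T_1h and 145.4, 218.0 and 87.8 FPKM at T_3h. The groups overlapped, but each heated library was above the CON library of its number, by 1.99, 2.12 and 3.02 times at T_3h. Being higher in 3 of 3 held for 6.21% of all genes at T_1h and 4.93% at T_3h. The log2(fc) of MSTRG.43914 at T_3h was 1.21 (limma unadjusted p = 0.074). With the replicate block it was past the thresholds (limma unadjusted p = 0.003), as 6.22% of all genes tested were. The other hephaestin-like gene, MSTRG.43923, had a log2(fc) of 0.07 at T_3h (limma unadjusted p = 0.914). A ceruloplasmin, MSTRG.43916, was lower in 3 of 3 libraries compared by number at T_3h (log2(fc) -0.34, limma unadjusted p = 0.350). Lower in 3 of 3 were 26.4% of all genes. The divalent metal importer NRAMP2, MSTRG.4115, had 3.08, 3.21 and 7.44 FPKM at T_3h and 3.38, 3.67 and 7.88 FPKM in CON, with a log2(fc) of -0.11 (95% confidence interval -1.16 to 0.95, limma unadjusted p = 0.819).

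The genes most like MSTRG.32738 over the 9 libraries, by Pearson's r of log2(FPKM + 1) among 5402 described genes of at least 1 FPKM, were MSTRG.32642 (glutamate receptor 2, r = 0.971), MSTRG.26915 (zinc transporter ZIP12, r = 0.965), MSTRG.9464 (fibrinogen-like protein A, r = 0.962), MSTRG.20807 (P-selectin-like, r = 0.957) and MSTRG.21053 (nephrin, r = 0.949). All these values share the same 9 libraries and their differences between groups, and no test was made. With 8 libraries and with median-ratio scaling, 4 of the 5 stayed among the top 5. For ferritin the genes were MSTRG.18551 (phosphoglycolate phosphatase, r = 0.973), MSTRG.20442 (aquaporin-9-like, r = 0.971), MSTRG.16181 (UDP-glucuronosyltransferase 2B17-like, r = 0.965), MSTRG.8601 (small nuclear ribonucleoprotein-associated protein B'-like, r = 0.965) and MSTRG.40379 (polypyrimidine tract-binding protein 1-like, r = 0.962). Of these, 2 stayed among the top 5 with 8 libraries and 1 with median-ratio scaling.

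The labelled tissue was checked with descriptions of marker genes. The 24 collagen genes of the dermis summed to between 14507 and 32592 FPKM at T_3h and between 13400 and 24382 FPKM in CON, and none of the lists had a gene at 0 in all libraries. The 24 muscle genes summed to between 87.8 and 197 FPKM at T_3h and between 75.3 and 129 FPKM in CON. The 42 genes matched as gut markers include many trypsin inhibitors by name. These 42 genes summed to between 45.6 and 76.1 FPKM at T_3h and between 78.0 and 118 FPKM in CON. The ranges did not overlap, and 9% of all genes tested had T_3h libraries that all lay below CON. The median log2(fc) of the gut list at T_3h was -0.07, beside -0.17 over all genes tested. The 3 coelomocyte genes summed to between 8.09 and 19.2 FPKM at T_3h and between 15.3 and 59.6 FPKM in CON. The most abundant of them by mean, a lysozyme (MSTRG.14989), fell past the thresholds (log2(fc) -2.04), while the other 2 genes were above 0 and not past them, and the median of the list was 0.09. The 7 gonad genes summed to between 6.09 and 15.4 FPKM at T_3h and between 13.02 and 19.3 FPKM in CON, and none was past the thresholds. In T_3h vs. CON, 3 collagen genes were higher and 2 lower past them, 3 muscle genes were higher and 1 lower, and 1 gut gene was higher and 1 lower. Of all genes tested, 0.473% were higher and 3.67% lower past them at T_3h, and 0.398% and 0.473% at T_1h. In T_1h vs. CON, 3 collagen genes were higher and 1 lower and 2 muscle genes were higher, with none in the gut, gonad and coelomocyte lists. The part of these shifts in the levels of ferritin and the melanotransferrins was not tested.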

How the data were processed

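Body wall RNA was measured in 9 libraries, and each library was grouped by its title. The authors removed adaptors, primers and low-quality reads, aligned with HISAT to the *A. japonicus* genome, assembled with StringTie, merged the transcripts and deposited FPKM values estimated with StringTie and Ballgown. The submitters' processing notes list HISAT2 2.0, StringTie 1.3.0 and Bowtie 0.12.2. Counts were not used here, so no count test was run.

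FPKM was fitted as log2(FPKM + 1) with limma 3.58.1 in R 4.3.3, in 1 model of the 3 groups with the trend option, over genes above 0 FPKM in at least 2 of the 8 libraries (T_1h_1 left out, as in the study). P-values are two-sided, and adjusted ones are Benjamini-Hochberg values over all genes tested. Tables and figures were made with Python 3.11.15, pandas 2.3.3, numpy 2.4.6 and matplotlib 3.10.9. The procedure was also run on simulated data whose libraries varied independently, unlike the same-numbered libraries here, so nothing is read from that run. The members and lists were chosen with earlier results of these data known. Named genes are all members, the listed iron genes of at least 1 FPKM that were past the thresholds, the most abundant gene of each list, and the 5 genes of most similar pattern. The lysozyme was named after its values were seen.

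Same-numbered libraries deviated together from their group means (correlation 0.595 to 0.722 over 9 pairs). The mean of -0.331 over 18 pairs of different numbers follows largely from centring each group on its mean, so nothing is read from it. From the same-number correlations, the numbers, which come from the titles, were taken to pair the libraries. A fit with the number as a block was run. Of 16 gene and gene model names of the members, 0 were found in the RefSeq gene table, so no position or sequence is given. Alternatives were the pseudocount, the filter, all 9 libraries, median-ratio and upper-quartile scaling, a Ballgown-type F-test, no trend, the block and each library left out. Counting the kinase as a member was added after seeing the data.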

Additional observations from a re-analysis of the deposited data

How the results depend on the processing

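FPKM does not give the reads behind a single gene, so precision was taken from the spread of 3 libraries a group, or 2 for T_1h. Of 646 alternative fold changes of single genes 521 kept their direction and side of the thresholds, 59 were no longer past them, 18 were newly past them, 36 changed sign and 12 of an untested gene moved beyond its spread. The causes were not tested beyond what the settings themselves leave out.

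Among the tested iron genes, 1 was past the thresholds in T_1h vs. CON, 1 in T_3h vs. CON and 0 in T_3h vs. T_1h. With all 9 libraries, with or without the replicate block, the T_1h count was 0, and with the kinase counted it was 2 at both times. The Ballgown-type test gave 0 at T_3h and 1 in T_3h vs. T_1h. Leaving out 1 library gave 0 to 1, 0 to 2 and 0 to 1 in the 3 comparisons. For the other iron genes, the T_1h count of 2 became 1 with a minimum mean of 1 FPKM or all 9 libraries, 0 with median-ratio or upper-quartile scaling, and 4 with the replicate block on 8 libraries. Leaving out 1 CON or T_3h library gave 0 to 4, where 0.74% to 1.48% of all genes tested were past the thresholds. The T_3h count of 4 became 1 with either scaling or the Ballgown-type test and 7 with the replicate block on 8 or 9 libraries. Leaving out 1 library gave 1 to 11, where 2.43% to 7.28% of all genes tested were past the thresholds. Among the named genes, the pairing by number with 8 libraries changed the call of MSTRG.39015, MSTRG.43914 and MSTRG.33637 and no other.

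Signs changed as follows. MSTRG.32733 in T_3h vs. T_1h was 0.88 with all 9 libraries, 0.26 with median-ratio and 0.29 with upper-quartile scaling, 0.48 and 0.88 with the block on 8 and 9 libraries, 1.22 with the block, 9 libraries and median-ratio scaling, and -0.36 to 0.088 without 1 library. MSTRG.40899 in T_3h vs. CON was 0.26, 0.33 and 0.49 with median-ratio scaling, upper-quartile scaling and the Ballgown-type test, 0.27 with the block, 9 libraries and median-ratio scaling, and -0.75 to 0.27 without 1 library. MSTRG.36812 in T_3h vs. CON was -1.0 to 0.80 without 1 library. At T_1h it kept its sign, at 0.40 to 2.20. The kinase in T_3h vs. T_1h was -0.25 with 9 libraries with or without the block, -0.10 with the block on 8, and -0.19 to 0.26 without 1 library. MSTRG.4115 at T_1h was -0.034 with 9 libraries with or without the block, -0.10 with the block on 8, and -0.17 to 0.41 without 1 library. At T_3h it was 0.32 with median-ratio scaling, with or without the block and 9 libraries, 0.37 with upper-quartile scaling, 0.46 with the Ballgown-type test, and -0.45 to 0.22 without 1 library. MSTRG.26046 at T_1h was -0.60 to 0.16 without 1 library. Over the settings that moved it, the untested MSTRG.32738 was 1.41 to 2.06 at T_1h and 2.22 to 2.29 at T_3h, and in T_3h vs. T_1h it was 0.20 to 0.62, against -0.13 as reported.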
